A study of Mus musculus with 14 samples.

Results

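The 36 genes described here form the glycolysis and hypoxia response module of wounded mouse fibroblasts, and they were taken by gene symbol from the 43472 rows of each normalised count table. Of these, 25 encode glucose transporters, glycolytic enzymes and the proteins that handle lactate and pyruvate, and 11 belong to the hypoxia-inducible factor (HIF) system. All 36 were found in both tables and passed the filter of a mean normalised count of at least 10. RNA was sequenced from primary fibroblasts of C57BL/6 mice, grown out of collagenase-digested tail tips in serum- and pyruvate-containing medium and wounded with a scratch. The Untreated cultures received no graft material, and the AMG-treated cultures received autologous micrograft (AMG), the cell-depleted soluble fraction of minced mouse skin, diluted 1:10 in the same growth medium. At 5 h there were 4 libraries per group, with replicate 1 in a first table and replicates 2, 3 and 4 in a second one, and at 1, 12 and 24 h there was 1 library per group, all of replicate 1. The replicates are called biological, yet nothing says whether they came from separate animals or cultures, so the p-values measure only the spread between these libraries.

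Glycolysis splits glucose into pyruvate in the cytosol, and the steps at hexokinase, phosphofructokinase and pyruvate kinase are its main points of control. HIF is a transcription factor whose alpha subunit is hydroxylated by oxygen-dependent prolyl hydroxylases and then degraded, so that low oxygen stabilises it and raises the transcription of glycolytic enzymes, glucose transporters and the hydroxylases themselves. In fibroblasts of a wound, the same genes are also known to respond to growth factors and inflammatory signals at normal oxygen.

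HIF binds a short core sequence in DNA, and the promoters in the RefSeq table are therefore shown for the 5 members with the largest log2 fold changes among those called higher at 5 h with the replicate block, Ndrg1 aside. Each is the stretch of 250 bases before the transcription start, read 5′ to 3′ on the strand of the gene from RefSeq on the build GRCm38.p6. Capitals mark every match to ACGTG or GCGTG on either strand, and a match read on the other strand appears as CACGT or CACGC. Egln3 (chr12:54203875-54204124, minus strand) and Pdk4 (chr6:5496279-5496528, minus strand) held 1 match each, while Hk2 (chr6:82774455-82774704, minus strand), Slc2a1 (chr4:119108495-119108744, plus strand) and Adm (chr7:110627407-110627656, plus strand) held 2 each.
Egln3: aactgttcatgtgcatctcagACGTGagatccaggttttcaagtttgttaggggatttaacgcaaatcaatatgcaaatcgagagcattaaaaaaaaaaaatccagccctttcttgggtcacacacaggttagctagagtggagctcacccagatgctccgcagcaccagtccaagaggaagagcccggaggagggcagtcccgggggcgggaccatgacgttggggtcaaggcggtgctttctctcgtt
Slc2a1: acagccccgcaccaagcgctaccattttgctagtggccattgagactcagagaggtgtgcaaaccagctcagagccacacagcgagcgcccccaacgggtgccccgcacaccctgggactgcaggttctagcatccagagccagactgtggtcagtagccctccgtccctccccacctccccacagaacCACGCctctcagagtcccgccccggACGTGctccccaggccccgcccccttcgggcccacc
Hk2: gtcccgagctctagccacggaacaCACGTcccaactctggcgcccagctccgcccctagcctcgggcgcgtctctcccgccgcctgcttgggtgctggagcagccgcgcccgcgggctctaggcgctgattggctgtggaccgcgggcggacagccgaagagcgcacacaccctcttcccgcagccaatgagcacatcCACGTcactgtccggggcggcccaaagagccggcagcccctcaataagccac
Pdk4: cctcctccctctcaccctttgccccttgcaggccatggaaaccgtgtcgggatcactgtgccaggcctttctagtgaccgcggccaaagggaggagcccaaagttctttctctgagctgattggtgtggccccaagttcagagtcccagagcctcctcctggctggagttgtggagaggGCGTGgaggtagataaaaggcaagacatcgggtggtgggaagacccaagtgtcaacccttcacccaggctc
Adm: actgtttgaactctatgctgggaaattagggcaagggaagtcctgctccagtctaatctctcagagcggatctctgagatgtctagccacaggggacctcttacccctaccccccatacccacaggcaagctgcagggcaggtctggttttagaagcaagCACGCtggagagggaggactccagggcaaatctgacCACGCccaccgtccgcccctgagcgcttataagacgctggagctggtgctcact

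The RefSeq table held promoters for 32 of the 36 members, with 45 promoters in all because some genes have several starts. Some of the 45 overlap and share matches, as for Aldoa, Eno1 and Pfkm. The table held none for Slc2a3, Epas1, Bnip3l and Ndrg1. At least 1 match to the core was found in 82.2% of the 45 member promoters, against 38.6% of all 32851 promoters of the same length and 55.6% of the 12354 promoters of genes tested at 5 h. At least 2 matches were found in 46.7% of member promoters, against 16.7% of all promoters and 26.9% of those of tested genes. The members were chosen for glycolysis and the hypoxia response, so these shares describe that choice and not an effect of AMG. The median GC content was 60.4% for the members and 60.0% for the tested genes. The letters CACGTG, which also form an E-box and count as 2 overlapping matches, were present in 13.3% of member promoters and in 8.25% of those of tested genes. All 8 promoters of HIF members, with a median GC content of 67.0%, and 78.4% of the 37 promoters of glycolysis members, with one of 60.4%, held a match. Of 13 promoters of members called higher at 5 h with the replicate block, 12 held a match and 9 held at least 2. Of 28 promoters of members not called, 22 held a match and 10 held at least 2. The median GC content was 66.4% for the 13 promoters and 60.4% for the 28. The 4 promoters of members called lower all belong to Pfkm, where 3 held a match and 2 held at least 2. Bnip3 and 1 promoter of Ldha, members not called, held 5 matches each. Whether the matches had a part in the calls was not tested. A match describes the sequence and does not show a bound factor.

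Depth ranged from 12545537 to 34696529 gene-assigned reads per library. All 10 fibroblast markers were among the detected genes, and 2 of them had a log2 fold change above 0 at 5 h. In limma 0 of the 10 were called without the replicate block and 6 with it, where the block called 17.9% of all genes higher and 19.3% lower. Col1a1 led the list with means of 238625 and 152164 in untreated and treated libraries. The summed normalised count of the list was 447915 to 626083 in untreated and 350893 to 453679 in treated libraries of replicates 2 to 4. In these 6 libraries the keratinocyte keratins Krt5, Krt14 and Krt1, the muscle myosins Myh4 and Myh1, the haemoglobin genes Hba-a1 and Hba-a2 and the adipocyte gene Adipoq had 0 reads. Other genes of these lists were present: the skeletal muscle list summed to 2907 to 7296 in untreated and 1751 to 5503 in treated libraries, led by the actin gene Acta1 with means of 5692 and 3922, and 2 of 9 keratinocyte genes passed the filter, led by Krt10 with means of 29.1 and 39.0. The part of these cells in the results was not tested. The summed leukocyte markers spanned 166 to 1371 in untreated and 208 to 1216 in treated libraries, so the ranges overlapped. Those of the endothelial list spanned 48.7 to 316 and 71.2 to 190, with 2 of 7 genes past the filter. Replicate 3 stood apart from replicates 2 and 4 for several members in both groups. Untreated 5h replicate 1 had 7.003% of its reads on ribosomal protein genes and AMG-treated 1h replicate 1 had 5.10%, against 2.27% to 3.47% in the other libraries.

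At 5 h a few members differed strongly between AMG-treated and untreated cells, and most of the glycolytic enzymes had smaller fold changes. With limma on replicates 2 to 4, 2 of the 36 members passed a Benjamini-Hochberg adjusted p of 0.05, and both were higher: Egln3, a HIF prolyl hydroxylase, and Hk2, the inducible hexokinase. Over all 13096 genes tested, 0.97% were called higher and 0.267% lower. No member was called lower by limma, 3 (8.3%) were lower at an unadjusted p under 0.05, and 7 (19.4%) were higher at that level, where 11.1% of all genes tested were lower and 11.9% higher. The replicate numbers paired the libraries, and with the replicate number as a block limma called 13 members higher and 4 lower, where it called 17.9% of all genes higher and 19.3% lower. On the recovered reads, edgeR called 1 member higher and 0 lower (0.817% and 0.214% of all genes), edgeR with the replicate block 13 and 4 (18.4% and 18.6%), and DESeq2 5 and 1 (6.52% and 4.43%). In edgeR on all 8 libraries at 5 h with the replicate block, Slc2a1, Hk2, Egln3 and Ndrg1 were called higher and 0 lower, against 2.49% and 1.29% of all genes. Replicate 1 at 5 h went against the blocked call for Slc2a3, Tpi1, Pgam1, Slc16a3, Epas1, Egln1, Adm and Higd1a. Once corrected for transcript length, its log2 ratio was 0.24 for Adm and -0.086 for Slc2a3, on the side of their calls. That of Slc16a1 was then -0.21, against its call. With the block and a correction for transcript length, 14 members were called higher and 4 lower, against 17.8% and 15.8%. This fit added Hif1a, Hk1 and Pfkp to the higher and Ldhb to the lower members and dropped Pgam1, Tpi1 and Epas1. Without AMG-treated 5h replicate 3, limma called 6 higher (Slc2a1, Hk2, Egln3, Ndrg1, Adm and Higd1a) and Slc2a3 lower, against 8.75% and 8.05% of all genes. A change is called a rise or a fall below only where it passed the test named with it. In bulk RNA, fewer cells of a kind and less RNA per cell cannot be told apart.

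The median log2 fold change was 0.19 over the 25 glycolysis members and 0.30 over the 11 HIF members, where the median of all genes tested was -0.018. In the glycolysis set 18 of 25 members had a fold change above 0, and in the HIF set 8 of 11 had one, as did 6338 of the 13096 genes tested. The median of the glycolysis members was 0.08, 0.14 and 0.30 in the pairs of replicates 2, 3 and 4, and that of the HIF members was 0.40, 0.10 and 0.45. The glycolysis median was 0.10 with the length correction, 0.12 in edgeR on all 8 libraries with the replicate block and 0.033 without AMG-treated 5h replicate 4. The HIF median was 0.19 in edgeR on all 8 libraries with the replicate block and without AMG-treated 5h replicate 4, 0.59 without Untreated 5h replicate 4 and 0.64 without AMG-treated 5h replicate 3. The 3 treated values lay above the 3 untreated values for 8 members, against 15.1% of all genes tested, and below them for 4 members, against 13.6%. With replicate 1 added, 9 glycolysis members (Slc2a1, Hk1, Hk2, Gpi1, Pfkp, Pfkfb3, Aldoa, Slc16a1 and Pdk4) and 3 HIF members (Egln3, Car9 and Ndrg1) were above 0 in all 4 pairs at 5 h, against 15.7% of 12844 genes. Below 0 in all 4 pairs were 4 glycolysis members (Pfkm, Eno2, Ldhb and Pdk1) and 1 HIF member (Bnip3l), against 16.0%. With the correction for transcript length, the replicate 1 ratio of Slc16a1 at 5 h was -0.21.

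**Figure D1:**
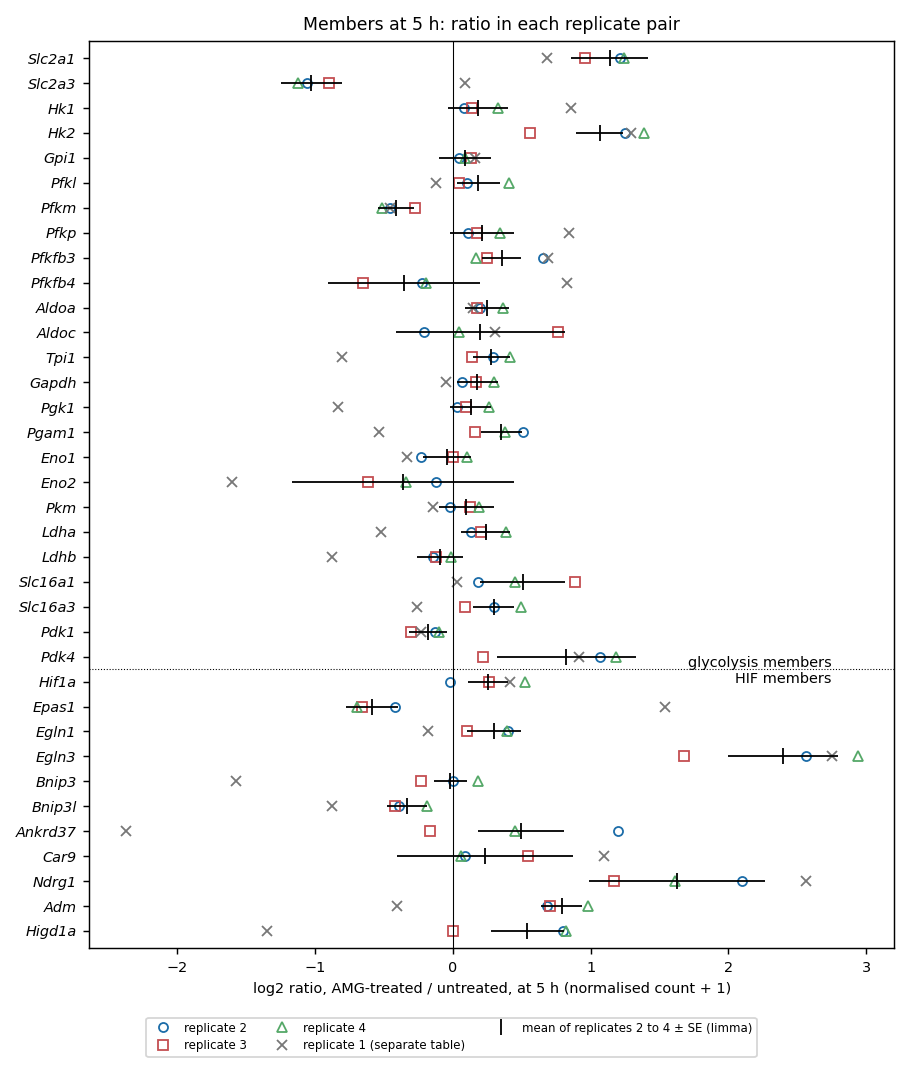
Log2 ratio of AMG-treated to untreated normalised count (plus 1) at 5 h for each of the 36 members, with glycolysis members above and HIF members below the dotted line. Circles, squares and triangles are the pairs of replicates 2, 3 and 4, crosses are replicate 1 from the separately scaled table, and the black tick and bar are the mean and standard error from limma. Egln3, Ndrg1, Slc2a1 and Hk2 lie above 0 in all 4 pairs, while Epas1, Ankrd37, Higd1a and Bnip3 have a replicate 1 ratio far from the others.

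Of the glucose transporters, which carry glucose across the plasma membrane, the common form was higher and the neuronal form lower with AMG. Slc2a1 (GLUT1, chromosome 4, 119108711 to 119137983 on mm10) had 3202, 2558 and 4145 normalised counts in untreated replicates 2, 3 and 4, and 7426, 4976 and 9788 in the treated ones. Every treated library lay above every untreated one, and replicate 3 was the lowest of both groups. The log2 fold change was 1.14 (SE 0.28) with an adjusted p of 0.0990 in limma, and it rose with the replicate block (adjusted p = 5.35e-05). Slc2a3 (GLUT3, chromosome 6, 122727809 to 122801640) had 174, 145 and 139 normalised counts without AMG and 82.7, 77.1 and 63.3 with it. These groups did not overlap either, and all 3 treated libraries were the lower ones. Its log2 fold change was -1.03 (SE 0.22, limma adjusted p = 0.0779), and it fell with the block (adjusted p = 0.00372). Replicate 1 at 5 h gave a log2 ratio of 0.68 for Slc2a1 and of 0.086 for Slc2a3, and the call of Slc2a3 was lost in edgeR on all 8 libraries (log2 fold change -0.75, adjusted p = 0.176). With the correction for transcript length, these replicate 1 ratios were 0.63 and -0.086. Per kilobase of exon, Slc2a1 stood at 1013 and Slc2a3 at 38.5 normalised counts in untreated cells.

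Hexokinase traps glucose in the cell as glucose 6-phosphate, and of its 2 members the inducible Hk2 was called. Hk2 (chromosome 6, 82725025 to 82774454) had 1125, 1523 and 1143 normalised counts in untreated replicates 2, 3 and 4, and 2683, 2242 and 2987 in the treated ones. The groups were separate, and replicate 3 was the highest untreated and the lowest treated library. The mean rose from 1264 ± 225 to 2638 ± 375 (SD, n = 3), a log2 fold change of 1.07 (SE 0.17, limma adjusted p = 0.0438). With the block the adjusted p was 0.00101. Leaving out AMG-treated 5h replicate 3 gave an adjusted p of 0.0140, and leaving out each other library in turn gave 0.0532 to 0.207. Hk1, the constitutive hexokinase, had a log2 fold change of 0.18 (SE 0.22, limma adjusted p = 0.648), and of 0.35 with the block and the length correction (adjusted p = 0.0149).

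Phosphofructokinase commits the sugar to glycolysis, and its muscle form was the member of the 3 that was lower. Pfkm (chromosome 15, 98092589 to 98132451) had 865, 813 and 792 normalised counts without AMG and 629, 672 and 555 with it. The treated libraries were all below the untreated ones. The log2 fold change was -0.42 (SE 0.13, limma adjusted p = 0.138), and Pfkm fell with the block (adjusted p = 0.0151). Pfkm shares its locus with Senp1 on the opposite strand, which had a mean of 530 normalised counts, and whether the counting used strand is not given in the sources used here. The liver form Pfkl and the platelet form Pfkp had log2 fold changes of 0.19 and 0.21 (adjusted p = 0.504 and 0.618 in limma), and Pfkp one of 0.33 with the block and the length correction (adjusted p = 0.0211). Pfkp overlaps Pitrm1 on the opposite strand, which had a mean of 1225 normalised counts.

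Pfkfb3, which makes the fructose 2,6-bisphosphate that activates phosphofructokinase, had 904, 977 and 949 normalised counts without AMG and 1421, 1163 and 1064 with it. All treated values were the higher ones, and replicate 2 had the largest difference. Its log2 fold change was 0.36 (SE 0.14, limma adjusted p = 0.201), and it rose with the block (adjusted p = 0.0389). Pfkfb4, which makes the same activator, had 156, 471 and 138 normalised counts without AMG and 134, 299 and 121 with it. Here replicate 3 was far above the other pairs in both groups, and the log2 fold change of -0.36 had an SE of 0.55. Without Untreated 5h replicate 3 the fold change was 0.20.

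The triose phosphate isomerase gene Tpi1 had 12319, 13804 and 13329 normalised counts without AMG and 15059, 15174 and 17735 with it. The groups were separate, with a log2 fold change of 0.28 (SE 0.13, limma adjusted p = 0.259). Tpi1 rose with the block (adjusted p = 0.0453), and with a correction for transcript length added to the block the log2 fold change was 0.12 (adjusted p = 0.267). Replicate 1 at 5 h went from 16183 to 9254 normalised counts (log2 ratio -0.81), and edgeR on all 8 libraries with the replicate block gave 0.023 (adjusted p = 0.969). The phosphoglucose isomerase gene Gpi1 and the aldolase genes Aldoa and Aldoc had log2 fold changes of 0.087, 0.25 and 0.20, and none passed limma with or without the block. Of the 11 members from hexokinase to triose phosphate isomerase, 3 rose and 1 fell with the block, against 17.9% and 19.3% of all genes tested.

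Of the 6 members of the lower chain, from glyceraldehyde phosphate to pyruvate, only Pgam1, a phosphoglycerate mutase, rose with the block, and none fell. Among all genes tested, 17.9% rose and 19.3% fell with it. Pgam1 had 11528, 11237 and 12263 normalised counts without AMG and 16427, 12590 and 15953 with it. The groups did not overlap, and treated replicate 3 was the one nearest to the untreated libraries. The log2 fold change was 0.35 (SE 0.15) with an adjusted p of 0.216 in limma, 0.0219 with the block, and 0.0906 once transcript length was also corrected for. Replicate 1 at 5 h had a log2 ratio of -0.54, and edgeR on all 8 libraries with the replicate block gave a log2 fold change of 0.14 (adjusted p = 0.774). Gapdh, Pgk1, Eno1 and Pkm had log2 fold changes of 0.18, 0.13, -0.044 and 0.098, with adjusted p from 0.502 to 0.905 in limma. Eno2, the neuronal enolase, had 47.3, 241 and 46.0 normalised counts without AMG and 43.3, 157 and 36.1 with it, so that replicate 3 again stood above the other pairs in both groups.

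Pyruvate is either reduced to lactate and exported or passed to the mitochondria. At this branch 3 of the 6 members rose with the block, against 17.9% of all genes tested. Pdk4, a kinase that switches off pyruvate dehydrogenase, had 151, 397 and 104 normalised counts without AMG and 317, 462 and 237 with it. The groups overlapped because untreated replicate 3 was above 2 of the treated libraries, while each pair was higher with AMG. The log2 fold change was 0.82 (SE 0.51, limma adjusted p = 0.359), and with the block Pdk4 rose (adjusted p = 0.0111). Pdk1, the related kinase that HIF is known to induce, had a log2 fold change of -0.18 (SE 0.14) and was below 0 in all 4 pairs (adjusted p = 0.172 with the block in limma).

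The monocarboxylate transporters carry lactate. Slc16a1 (MCT1) had 451, 227 and 460 normalised counts without AMG and 511, 420 and 629 with it. The groups overlapped, with replicate 3 lowest in both, and the log2 fold change was 0.51 (SE 0.31, limma adjusted p = 0.359). Slc16a3 (MCT4), the exporter of highly glycolytic cells, had 3989, 4847 and 4536 normalised counts without AMG and 4915, 5148 and 6402 with it. Its groups were separate by a small margin, with a log2 fold change of 0.30 (SE 0.15, limma adjusted p = 0.277). Both rose with the block (adjusted p = 0.0264 for Slc16a1 and 0.0429 for Slc16a3). The log2 ratio of Slc16a3 in replicate 1 at 5 h was -0.26, with 0.17 in edgeR on all 8 libraries (adjusted p = 0.652). The lactate dehydrogenase genes Ldha and Ldhb had log2 fold changes of 0.24 and -0.094 (adjusted p = 0.452 and 0.769 in limma), and Ldhb one of -0.35 with the block and the length correction (adjusted p = 0.0376).

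**Figure D2:**
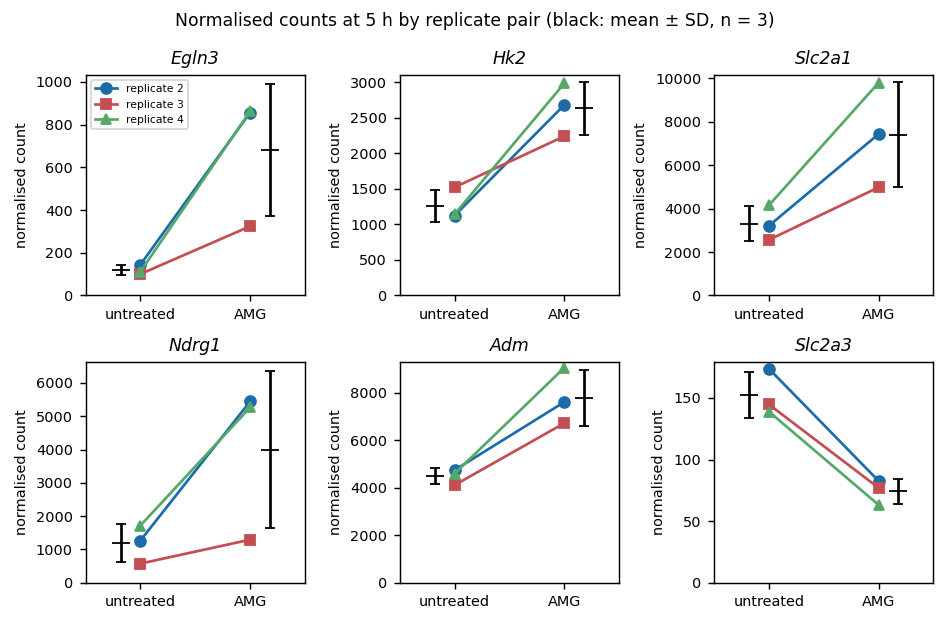
Normalised counts at 5 h in replicates 2, 3 and 4 for 6 members, with a line joining the untreated and the AMG-treated library of each replicate number. Black bars are the mean ± SD of the 3 libraries of a group. Egln3 rose from a mean of 119 to 681 and Ndrg1 went from 1187 to 4001, with replicate 3 the lowest treated library for both, whereas Slc2a3 lay lower in every treated library.

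Among the HIF subunits, Hif1a, the widely expressed alpha subunit, had a log2 fold change of 0.26 (SE 0.14, limma adjusted p = 0.323) and did not pass with the block (adjusted p = 0.0956), while it rose with the block and the length correction, by a log2 fold change of 0.45 (adjusted p = 0.0123). Epas1, which encodes HIF-2 alpha, had 192, 210 and 253 normalised counts without AMG and 144, 133 and 156 with it. Its treated libraries were all the lower ones, with a log2 fold change of -0.59 (SE 0.19, limma adjusted p = 0.144), and Epas1 fell with the block (adjusted p = 0.0188). With length correction and the block the adjusted p was 0.0803. Replicate 1 went the other way, from 32.8 to 97.5 normalised counts at 5 h, and edgeR on all 8 libraries gave a log2 fold change of -0.15 (adjusted p = 0.879).

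Of the prolyl hydroxylases that mark HIF for degradation, Egln3 (PHD3) had the largest fold change of the 36 members. Egln3 (chromosome 12, 54178981 to 54203860) had 144, 100 and 111 normalised counts in untreated replicates 2, 3 and 4, and 856, 324 and 862 in the treated ones. The lowest treated library, replicate 3, was still above every untreated library. The mean rose from 119 ± 22.8 to 681 ± 309 (SD, n = 3), a log2 fold change of 2.39 (SE 0.40, limma adjusted p = 0.0496). The adjusted p was 0.000103 with the block and 0.00630 in edgeR on all 8 libraries at 5 h with the replicate block. It was 0.00348 without AMG-treated 5h replicate 3 and 0.0941 to 0.219 without each other library in turn, with log2 fold changes of 2.16 to 2.86 over all 6. Egln1 (PHD2), the main oxygen sensor of most cells, had 1878, 1551 and 1939 normalised counts without AMG and 2477, 1662 and 2547 with it. The groups overlapped through treated replicate 3, and the log2 fold change was 0.30 (SE 0.20, limma adjusted p = 0.392, 0.0392 with the block). In replicate 1 at 5 h the log2 ratio of Egln1 was -0.18, and edgeR on all 8 libraries gave 0.19 (adjusted p = 0.568).

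The 7 HIF targets did not move as 1 group: 3 rose and 1 fell with the block, against 17.9% and 19.3% of all genes tested. Ndrg1, a stress and differentiation gene, had 1267, 575 and 1718 normalised counts without AMG and 5444, 1294 and 5265 with it. Treated replicate 3 lay among the untreated libraries, yet it was above its own untreated partner, and the log2 fold change was 1.63 (SE 0.64, limma adjusted p = 0.193). With the block the adjusted p was 0.000117, and in edgeR on all 8 libraries at 5 h with the replicate block it was 0.0145. Adm, which encodes the vasodilator peptide adrenomedullin, had 4746, 4115 and 4600 normalised counts without AMG and 7616, 6726 and 9062 with it. The groups were well apart, with a log2 fold change of 0.79 (SE 0.15, limma adjusted p = 0.0587, 0.000474 with the block). Replicate 1 at 5 h went the other way, from 8769 to 6611 normalised counts (log2 ratio -0.41), and the call was lost in edgeR on all 8 libraries with the replicate block (log2 fold change 0.51, adjusted p = 0.310). With the correction for transcript length, the replicate 1 ratio of Adm was 0.24. Higd1a, a mitochondrial protein of the respiratory chain, had 1135, 1058 and 1201 normalised counts without AMG and 1976, 1061 and 2125 with it. The pair of replicate 3 gave a log2 ratio of 0.00, and the log2 fold change of 0.54 (SE 0.26) passed only with the block (adjusted p = 0.268 without it and 0.0221 with it in limma). Replicate 1 at 5 h had a log2 ratio of -1.35, and edgeR on all 8 libraries gave 0.10 (adjusted p = 0.919).

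The mitophagy receptors Bnip3 and Bnip3l, which are classical hypoxia genes, were not higher. Bnip3l had 1279, 1519 and 1139 normalised counts without AMG and 976, 1136 and 997 with it. The highest treated value was just under the lowest untreated one, and the log2 fold change was -0.33 (SE 0.15, limma adjusted p = 0.233). Bnip3l fell with the block (adjusted p = 0.0261). Bnip3 had a mean of 2098 ± 154 without AMG and 2073 ± 160 with it (SD, n = 3), a log2 fold change of -0.018 (SE 0.12, limma adjusted p = 0.947). Car9, a carbonic anhydrase used as a hypoxia marker, had 96.8, 41.8 and 195 normalised counts without AMG and 103, 61.5 and 203 with it. The pairs lay far apart and the partners within each close together, with a log2 fold change of 0.23 (SE 0.64, limma adjusted p = 0.856). Car9 overlaps Gm12454 on the opposite strand, which had a mean of 69.4 normalised counts. Ankrd37, a small ankyrin repeat gene that overlaps Ufsp2 (mean 1070 normalised counts) on the opposite strand, had a log2 fold change of 0.50 (SE 0.32, limma adjusted p = 0.375).

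Per kilobase of exon, the level of the members in untreated cells ranged from 21.5 normalised counts for Aldoc to 28644 for Pkm. Pkm, which encodes pyruvate kinase, was followed by Ldha at 16465, Aldoa at 13873 and Gapdh at 12630. Egln3 was among the lowest at 44.5 and reached 256 with AMG. Hk2 went from 225 to 470 per kilobase, below Hk1, which stood at 753 without and 863 with AMG.

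**Figure D3:**
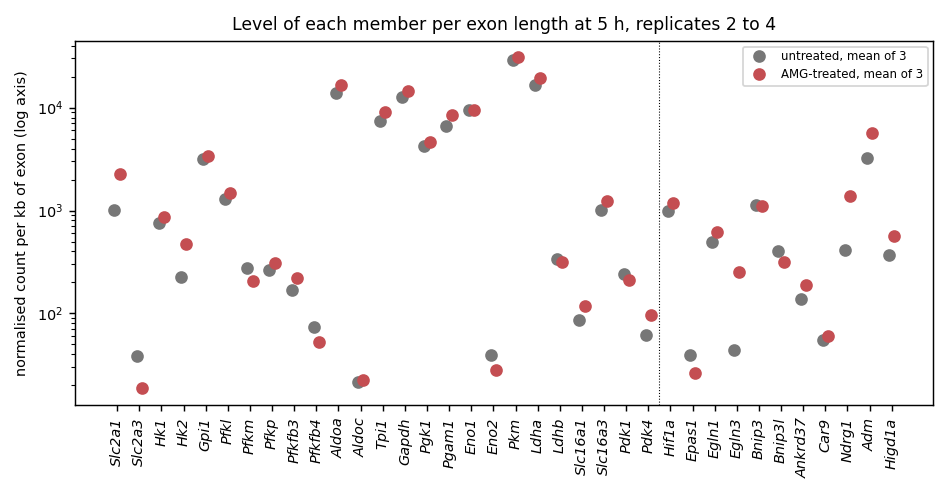
Mean normalised count per kilobase of exon at 5 h, on a log axis, for the 36 members in untreated (grey) and AMG-treated (red) libraries of replicates 2 to 4, with HIF members right of the dotted line. Pkm is highest at 28644 in untreated cells, and the gap between the groups is widest for Egln3, from 44.5 to 256.

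Several steps are served by more than 1 gene, so the share of each isoform gene was taken per kilobase within each library, which allows all 4 replicates at 5 h to be used. The share of Egln3 in the sum of Egln1 and Egln3 was 6.48%, 9.39%, 8.03% and 7.20% in untreated replicates 1 to 4, and 35.0%, 31.8%, 20.8% and 31.4% in the treated ones. All treated libraries were far above all untreated ones, and the mean went from 7.77% ± 1.25 to 29.7% ± 6.16 (SD, n = 4; exact two-sided permutation p = 0.0286, the smallest that 4 against 4 allows). The share of Slc2a1 in the sum of Slc2a1 and Slc2a3 went from 96.5% ± 0.957 to 98.9% ± 0.553 with the same exact permutation p. For Hk2 the share in the sum of Hk1 and Hk2 was 20.3%, 20.6%, 30.9% and 18.9% without AMG and 25.7%, 36.8%, 37.4% and 32.6% with it. It was higher in all 4 pairs, although treated replicate 1 was below untreated replicate 3 (exact permutation p = 0.0571). Pfkm took 16.4% ± 3.18 of the phosphofructokinase sum without and 11.6% ± 3.02 with AMG, lower in 4 of 4 pairs, and Pdk4 took 18.4% ± 7.99 and 30.8% ± 6.06 of the pyruvate dehydrogenase kinase sum, higher in 4 of 4 (exact permutation p = 0.0571 for both). Over the 13 shares compared, the smallest Benjamini-Hochberg adjusted p of the exact permutation tests was 0.149. Permuted within the 4 replicate pairs instead, the exact p could not go below 0.125, the value it took for Egln3, Slc2a1, Hk2, Pfkm, Pdk4, Pfkp and Ldha. Without the pairing, the 8 shares other than those of Egln3, Slc2a1, Hk2, Pfkm and Pdk4 had an exact permutation p of 0.286 or more.

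Replicate 1, read alone as 1 library per point with no test, extended the comparison to other times. Counting members that differed by more than 1.5-fold, 3, 7, 1 and 4 of the 25 glycolysis members were higher at 1, 5, 12 and 24 h and 5, 4, 3 and 3 were lower. Of the 11 HIF members 4, 4, 3 and 2 were higher and 0, 4, 1 and 1 were lower. Over all 13498 genes whose mean in the first table was at least 10, 22.6%, 25.6%, 11.8% and 12.8% were higher and 25.1%, 25.4%, 13.6% and 15.3% were lower by this fold. The median log2 ratio of the glycolysis members was -0.10, -0.05, -0.11 and 0.21 at the 4 times, and that of the HIF members 0.36, -0.18, 0.13 and -0.02.

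Egln3 was above its untreated partner at each time, with 349.5, 449, 538 and 554 normalised counts in treated libraries at 1, 5, 12 and 24 h and 151, 65.6, 101 and 124 in untreated ones. Its log2 ratio was 1.20, 2.76, 2.40 and 2.15. Slc2a1 and Pdk4 were also above 0 at all 4 times, with log2 ratios of 0.36, 0.68, 0.54 and 0.80 for Slc2a1 and 0.84, 0.92, 1.42 and 1.60 for Pdk4, where 7.22% of all genes were above 0 throughout. Pfkl, Eno2 and Pdk1 were below 0 at all 4 times, as were 8.05% of all genes. Ndrg1 and Hk2 differed mainly at the early times. Ndrg1 had 5020, 4560, 731 and 768 normalised counts in treated libraries and 1576, 772, 418 and 1014 in untreated ones, and Hk2 had 5874, 1458, 1104 and 1091 against 2971, 593, 871 and 1135. By 24 h the treated values of both were under the untreated ones, for Hk2 by a log2 ratio of -0.057. After correction for transcript length the 24 h ratio of Hk2 was 0.056. In both groups Hk2 and Slc2a1 had their highest value of the 4 times at 1 h.

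**Figure D4:**
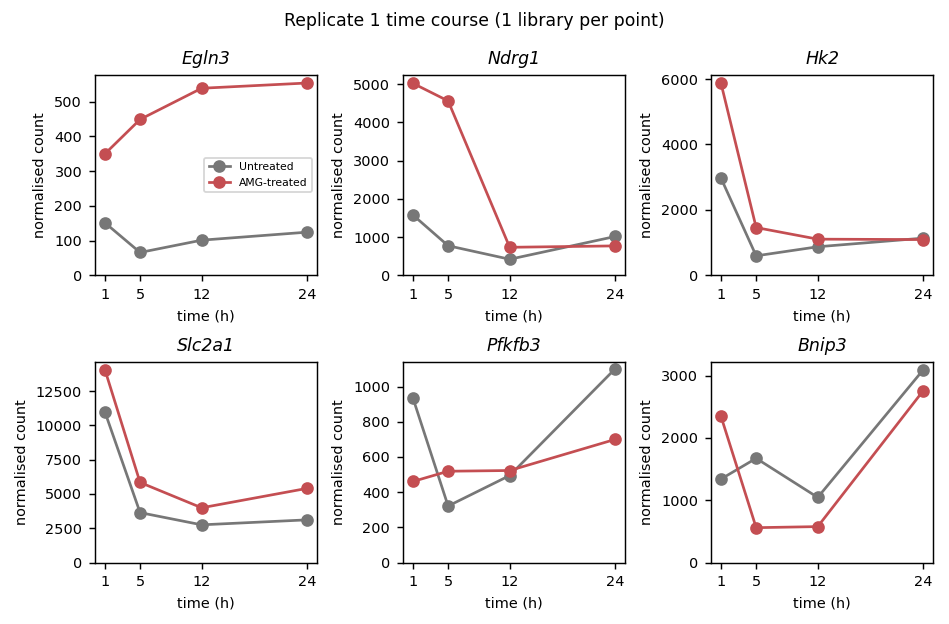
Normalised counts of 6 members at 1, 5, 12 and 24 h in replicate 1, with 1 library per point and no error, for untreated (grey) and AMG-treated (red) fibroblasts. The lines of Egln3 and Slc2a1 stay apart at all 4 times, and those of Ndrg1, Hk2, Pfkfb3 and Bnip3 cross, with treated Ndrg1 at 768 and untreated at 1014 by 24 h.

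Other members changed side between times or between replicate 1 and the other replicates. Pfkfb3 had log2 ratios of -1.02, 0.69, 0.08 and -0.65 at 1, 5, 12 and 24 h. The HIF targets Bnip3, Higd1a and Ankrd37 were at 0.81, 1.39 and -0.03 at 1 h and at -1.58, -1.35 and -2.37 at 5 h, where the mean of replicates 2 to 4 was -0.018, 0.54 and 0.50. The 5 h values of replicate 1 rest on the untreated library with the raised share of ribosomal protein reads. All its 1 h ratios rest on AMG-treated 1h replicate 1, where that share was 5.10%. After correction for transcript length the 5 h ratios of Bnip3, Higd1a and Ankrd37 were -1.18, -1.35 and -1.47, and their 1 h ratios 0.46, 1.43 and -0.96. The part of either library in these ratios was not tested. Slc2a3 was lower in treated cells at 12 and 24 h, with log2 ratios of -0.97 and -1.35.

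The rest of the pathway was read from lists of other genes. Of 25 tested genes of glucose uptake, glycolysis and pyruvate oxidation outside the 36, 0 were called by limma. At an unadjusted p under 0.05, 1 (4.0%) was higher and 1 (4.0%) lower, against 11.9% and 11.1% of all genes tested. With the block 3 rose and 5 fell, against 17.9% and 19.3% of all genes, and the median log2 fold change was -0.24. The lysosomal glucose transporter gene Slc2a6 rose with the block from 47.0 ± 23.5 to 159 ± 35.4 normalised counts (SD, n = 3; log2 fold change 1.83, adjusted p = 0.0747 without and 0.000708 with the block in limma). Pdp2, Pfkfb2 and Slc2a13 fell with the block, with log2 fold changes of -1.11, -1.04 and -0.86 (adjusted p in limma without the block 0.227, 0.135 and 0.227). Their log2 ratios in replicate 1 at 5 h were 0.037, -0.71 and 0.70, and that of Slc2a6 was 1.89. In edgeR on all 8 libraries at 5 h with the replicate block, 1 of the 25 genes was called higher and 0 lower, against 2.49% and 1.29% of all genes.

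Of 28 other tested HIF and hypoxia genes, 2 were called higher and 0 lower by limma. At an unadjusted p under 0.05, 6 (21.4%) were higher and 3 (10.7%) lower, against 11.9% and 11.1% of all genes tested. With the block 12 rose and 5 fell, against 17.9% and 19.3% of all genes, and the median log2 fold change was 0.10. Vegfa, the angiogenic growth factor, rose from 3818 ± 591 to 11100 ± 1491 normalised counts (SD, n = 3; log2 fold change 1.54, adjusted p = 0.0190 in limma). Hmox1, the heme-degrading heme oxygenase that oxidative stress also induces, had a log2 fold change of 3.32 (adjusted p = 0.00567 in limma). Ppp1r3c, a glycogen-targeting phosphatase subunit, and Car12, a carbonic anhydrase, fell with the block, with log2 fold changes of -1.79 and -0.92 (adjusted p in limma without the block 0.117 and 0.263). Replicate 1 at 5 h had log2 ratios of 1.79 for Vegfa, 2.07 for Hmox1, -2.35 for Ppp1r3c and 0.057 for Car12. In edgeR on all 8 libraries at 5 h with the replicate block, 3 of the 28 genes were called higher and 0 lower, against 2.49% and 1.29% of all genes.

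The pentose phosphate pathway branches from glucose 6-phosphate and makes NADPH and ribose. All 8 of its listed genes were tested, and 1 was called higher and 0 lower by limma. At an unadjusted p under 0.05, 3 (37.5%) were higher and 0 lower, against 11.9% and 11.1% of all genes tested. With the block 6 rose and 0 fell, against 17.9% and 19.3% of all genes, and the median log2 fold change was 0.43. Pgd, the phosphogluconate dehydrogenase, had 4512, 4570 and 4648 normalised counts without AMG and 9428, 9366 and 8826 with it. In replicates 2 to 4 its values lay close together within each group and the groups far apart, with a log2 fold change of 1.01 (adjusted p = 0.0190 in limma). Replicate 1 at 5 h gave Pgd a log2 ratio of 0.080. Taldo1, Rpia and Pgls rose with the block, by 0.80, 0.64 and 0.59 on the log2 scale (adjusted p in limma without the block 0.200, 0.2999 and 0.146). Their log2 ratios in replicate 1 at 5 h were -0.36, 0.47 and -0.92. In edgeR on all 8 libraries at 5 h with the replicate block, 0 of the 8 genes were called higher and 0 lower, against 2.49% and 1.29% of all genes.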

How the data were processed

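RNA was sequenced from 14 libraries of scratch-wounded C57BL/6 tail fibroblasts, with group and replicate as given in the titles. From stranded mRNA libraries the authors aligned reads to mm10 with TopHat2 2.0.13, counted uniquely aligned reads per gene with HTSeq 0.5.3p3 and divided the counts of each library by a DESeq size factor. Which annotation release was used and whether counting used strand are not given in the sources used here, so overlapping genes and genes with near-identical copies, such as Gapdh, are uncertain. The deposited values are therefore a signal, the normalised count, scaled separately in a table of replicate 1 (8 libraries) and a table of replicates 2 to 4 (6 libraries). All values were whole reads within a tolerance of 0.1 once divided by the size factor (100% in each library), which gave 12545537 to 34696529 reads. Reads carry no molecular identifiers.

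At 5 h, log2(normalised count + 1) of replicates 2 to 4 was compared with limma 3.58.1 in R 4.3.3 (lmFit, eBayes with a trend) over 13096 genes with a mean of at least 10, with Benjamini-Hochberg adjustment over all of them. Fold changes are on this scale, which understates those of low genes. Deviations from the group means correlated at r = 0.65, 0.76 and 0.70 between libraries with the same number and at -0.59 to 0.12 between others, so the numbers paired the libraries and a fit blocked on the number is given where it changes a call. Replicate 1 was described as log2 ratios, with a 1.5-fold limit. Levels per kilobase and the length correction (a lowess per library on the log2 length) used exon lengths of GENCODE M21 on GRCm38, found for 12939 of the tested genes. Shares of isoform genes were compared with exact two-sided permutation tests. The same test within replicate pairs was added after the data were seen. Alternatives were pseudocounts of 0.1 and 10, other filters, no trend, rescaling to the upper quartile, DESeq2 1.42.0 and edgeR 4.0.16 on recovered reads, edgeR on all 8 libraries at 5 h, the length correction and leaving out each library. The members and the lists of other genes were chosen with earlier results of these data known, so a list has no test of its own and is described by its counts and median. Values in every library are given for members called with or without the block, and in each list of other genes up to 4 called genes with the largest fold change are named.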

Additional observations from a re-analysis of the deposited data

Results flagged for a closer look

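Some values lay apart from the other pairs at 5 h, with a gap to the nearest pair above Dixon's 95% critical ratio for 4 values. Hk2 had a log2 ratio of 0.56 in replicate 3, under the other pairs, Ldhb had -0.87 in replicate 1, also under the others, and Epas1 had 1.54 in replicate 1, above the others. This was looked for in 38 items, and chance marks about 1 in 20.

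For several members all 4 pairs at 5 h had one sign and the single pair of replicate 1 at another time had the opposite one, a difference that was not tested because each of those times has 1 library per group. At 1 h these were the log2 ratios of Hk1 at -0.76, Gpi1 at -0.27, Pfkp at -0.63, Pfkfb3 at -1.02 and Aldoa at -0.10, all above 0 at 5 h, and of Ldhb at 0.19 and Bnip3l at 0.32, both below 0 at 5 h. At 12 h they were Slc16a1 at -0.094 and Car9 at -0.24. At 24 h they were Hk2 at -0.057, Pfkfb3 at -0.65, Car9 at -0.037 and Ndrg1 at -0.40, above 0 at 5 h, and Pfkm at 0.11, below 0 at 5 h. After correction for transcript length, Ldhb at 1 h had -0.48 and Hk2 at 24 h had 0.056, both with the sign seen at 5 h. The corrected 1 h ratios of Hk1, Gpi1, Pfkp, Pfkfb3 and Aldoa were -0.41, -0.26, -0.34, -0.63 and -0.47. That of Bnip3l was 0.42. The corrected 5 h ratio of Slc16a1 in replicate 1 was -0.21, so its 4 pairs did not keep one sign.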

How the results depend on the processing

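The count of members called at 5 h depended on the fit. Members called higher numbered 2 in limma, 13 with the replicate block in limma and in edgeR, 14 with the block and the length correction, 5 with DESeq2, 4 in edgeR on all 8 libraries with the replicate block, 1 in edgeR without the block and with upper quartile rescaling, and 0 without the trend. Leaving out each library in turn gave 0 to 6, with 6 without AMG-treated 5h replicate 3 and 0 without each other library. Members called lower numbered 0 in limma, 4 with the replicate block in limma and edgeR, 4 with the block and the length correction, and 1 with DESeq2, and leaving out each library gave 0 to 1, with 1 (Slc2a3) without AMG-treated 5h replicate 3. The block gave the calls named in the report and changed no other member's call. The calls of Hk2 and Egln3 were lost without the trend (adjusted p = 0.0802 and 0.0791 in limma), that of Hk2 in edgeR without the block (0.0517) and that of Egln3 with upper quartile rescaling in limma (0.0513). The median of the glycolysis members at 5 h, 0.19 in limma, ranged from 0.033 (without AMG-treated 5h replicate 4) to 0.27 when a library was left out, and that of the HIF members, 0.30, from 0.19 to 0.64 (without AMG-treated 5h replicate 3), with 0.59 without Untreated 5h replicate 4. In replicate 1 the length correction moved the glycolysis median at 1 h from -0.10 to -0.24 and the HIF median at 5 h from -0.18 to 0.038. Of 684 pairs of a member and an alternative, 23 reversed, in 14 members. None of these was called in limma with or without the block, but Hk1 and Pfkp were called higher with the block and the length correction. With the length correction, with or without the block, Gapdh went to -0.040, Pgk1 to -0.021 and Pdk1 to 0.0017, and in edgeR on all 8 libraries Pgk1 went to -0.099 and Ankrd37 to -0.19. When each library was left out in turn, fold changes on both sides of 0 were found for Hk1 (-0.0065 to 0.35), Gpi1 (-0.040 to 0.24, with -0.017 without AMG-treated 5h replicate 3), Pfkp (-0.013 to 0.36), Pfkfb4 (-0.77 to 0.20), Aldoc (-0.42 to 0.61, with -0.13 without AMG-treated 5h replicate 4), Eno1 (-0.15 to 0.11), Eno2 (-1.01 to 0.42, with 0.029 without AMG-treated 5h replicate 4), Pkm (-0.024 to 0.18), Bnip3 (-0.078 to 0.047, with 0.026 without Untreated 5h replicate 3) and Car9 (-0.33 to 0.77, with -0.21 without AMG-treated 5h replicate 4). The cause of these changes was not tested.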
